A study of Mus musculus with 6 samples.

Results

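The genes described here are 10 immediate early transcription factors, namely the AP-1 subunits Fos, Fosb, Fosl1, Fosl2, Jun, Junb and Jund, the zinc finger factors Egr1 and Egr2, and the AP-1-related factor Atf3. They were taken by symbol from a matrix of read counts over 54532 mouse genes, and each symbol matched 1 row. The matrix covers 6 subcutaneous tumours of G422, a mouse glioblastoma line, grown in untreated Kunming mice, an outbred stock. In 3 tumours the cells carried shNgb, a hairpin named for the neuroglobin gene Ngb, and in 3 they carried the vector, shVec, both delivered by lentivirus. The series' design text speaks of Ngb itself as the introduced gene, while the labels of the 3 tumours concerned say shNgb, and the labels were followed. The source name is G422 for all 6 samples, but the cell line tag carries a different running number in each, so whether all 6 tumours come from 1 line rests on the source name. The design text calls the tumours independent, but neither it nor the labels say whether each came from its own mouse or how many clones were used. The p-values therefore cover tumour-to-tumour spread, which may be technical in part. No sequencing or extraction batch is named.

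AP-1 is a dimer of leucine zipper proteins, in which a JUN protein pairs with itself or with a FOS protein, and FOS proteins do not form stable dimers with each other. Fos, Fosb, Jun, Junb, Egr1 and Egr2 are classic early genes, which growth factors and stress switch on within minutes through ERK and JNK kinases and the DNA-binding factors SRF, ELK and CREB. Fosl1 (FRA1) and Fosl2 (FRA2) follow later and last longer, and FRA1 is known from invasive and mesenchymal tumours, glioblastoma among them. Jund is the least inducible JUN gene, and Atf3 is switched on by stress kinases and by ATF4 in the integrated stress response.

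The start sites of these genes are shown because elements near such sites are known to relay such signals. Not every gene held a match in the windows searched here. RefSeq promoters (build GRCm38.p6, from 250 bases before to 50 after the start) were used for 8 of the 10 genes, without Fosl1 and Egr1. They were searched on both strands for the CRE core TGACGT, which CREB and ATF proteins bind, the octamer TGACATCA known from the Jun promoter, the AP-1 heptamer TGANTCA, the CArG box bound by SRF, and the EGR site GCGNGGGCG. In these genes no match of one motif overlapped a match of another. Of 32851 such promoters, 7.51% held the CRE core, 3.62% the Jun octamer, 7.81% the AP-1 heptamer, 1.63% a CArG box and 5.55% an EGR site. The 6 genes with a match are printed from position -100 to position 10, 5′ to 3′ on the gene's strand, with the start as position 1 and the matches in capitals.

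Fos, chr12:85473790-85473899, plus strand: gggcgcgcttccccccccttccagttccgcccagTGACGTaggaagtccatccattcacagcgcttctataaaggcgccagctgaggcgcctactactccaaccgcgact
Fosb, chr7:19310036-19310145, minus strand: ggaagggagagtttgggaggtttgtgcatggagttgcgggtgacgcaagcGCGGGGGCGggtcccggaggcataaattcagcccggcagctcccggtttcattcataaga
Fosl2, chr5:32136372-32136481, plus strand: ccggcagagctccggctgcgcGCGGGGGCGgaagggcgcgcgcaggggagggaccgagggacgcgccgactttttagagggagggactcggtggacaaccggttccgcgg
Jun, chr4:95052213-95052322, minus strand: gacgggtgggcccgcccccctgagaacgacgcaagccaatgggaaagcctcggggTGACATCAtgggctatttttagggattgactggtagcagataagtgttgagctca
Egr2, chr10:67537769-67537878, plus strand: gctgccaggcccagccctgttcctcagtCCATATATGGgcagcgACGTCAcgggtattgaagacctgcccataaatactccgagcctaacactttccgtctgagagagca
Atf3, chr1:191183324-191183433, minus strand: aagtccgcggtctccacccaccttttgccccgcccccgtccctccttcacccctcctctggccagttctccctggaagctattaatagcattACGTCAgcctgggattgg

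The CRE core began at -66 in Fos, at -56 in Egr2 and at -8 in Atf3, in the last pair on the opposite strand. Jun held its octamer at -45, and Egr2 held a CArG box at -72 in the printed entry, one of those with most matches among its 5 entries. EGR sites began at -50 in Fosb and at -79 in Fosl2. Junb and Jund held none of the 5 motifs in these windows, and the AP-1 heptamer was in none of the 8 genes. The motifs were chosen after the sequences had been seen, and a match describes letters, not binding.

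The libraries held 19630319 to 25620667 reads, and 15203 genes passed the expression filter, all 10 factors among them. Ngb, the gene named in the study's title, had 28, 23 and 13 reads with shVec and 18, 19 and 11 with shNgb, and the groups overlapped. The log2 fold change of Ngb (shNgb minus shVec throughout) was -0.59 (SE 0.42, 95% interval -1.55 to 0.37, edgeR adjusted p = 0.9997), so a lower Ngb level was not detectable at this depth and spread. Of 15 glial and neural stem markers, Nes (383 to 545 CPM, read counts relative to the scaled library size), Cspg4 (253 to 327 CPM, also a pericyte marker) and Sox2 (13.8 to 22.6 CPM) were present. Olig1, Olig2 and Aqp4 had 0 reads in every tumour and Gfap had 15 over all of them, so the defining markers of mature astrocytes and of oligodendrocytes were at or near 0.

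Per length, the AP-1 message of these tumours was mostly that of Junb, Jun and Fosl1. Junb stood highest at a median of 197 FPKM (fragments per kilobase scaled for library depth, as deposited by the authors) over the 6 tumours, with a range of 132 to 262. Jun followed at 79.3 (48.4 to 92.5) and Fosl1 at 72.0 (63.8 to 93.0), and these neighbours did not differ beyond their spread, since Jun was above Fosl1 in 3 of 6 tumours. The deposited Fosl1 values imply a length of 1716 bases, against 2033 bases of merged exons in the annotation used here. On the longer length the same reads would give a lower Fosl1 FPKM, so its median would lie further below that of Jun. How far these genes differ thus depends on the length taken. Jund stood at 34.9 FPKM (31.7 to 45.1), Fosl2 at 16.4 (11.5 to 21.1) and Atf3 at 6.24 (4.35 to 14.8). At the low end, Fosb stood at 2.31 FPKM (1.17 to 3.22), Egr2 at 1.15 (0.771 to 1.58), Fos at 0.549 (0.429 to 1.04) and Egr1 at 0.446 (0.253 to 0.648). The ranges of Fosl2 and Atf3, Fosb and Egr2, Egr2 and Fos, and Fos and Egr1 overlapped, although the gene named earlier was above the other in every tumour for all of these pairs but Fos and Egr1, where it was above in 5 of 6.

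**Figure D1:**
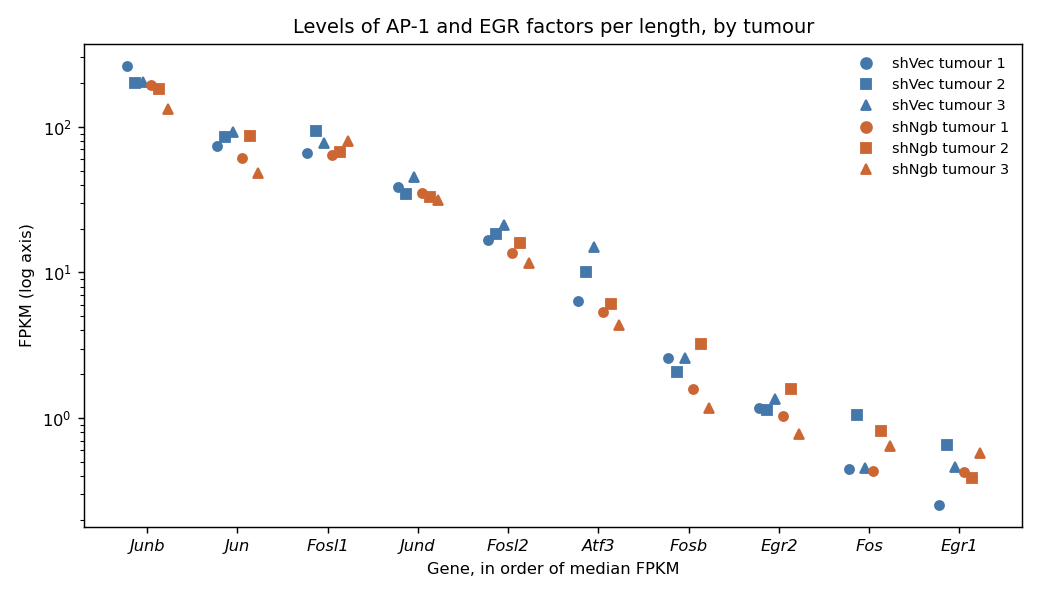
Deposited FPKM of the 10 factors (log axis, 1 point per tumour) in order of their median, with shVec tumours in blue, shNgb tumours in orange and the tumour number by symbol. Junb, at 132 to 262 FPKM, stands above all other genes in each tumour, and Fos and Egr1 stay at or under 1.04 FPKM.

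Fos and Egr1, the usual reporters of an acute stimulus, were thus the scarcest of the 10. Fos had 23, 49 and 21 reads with shVec and 21, 47 and 40 with shNgb, and Egr1 had 25, 58 and 41 against 40, 43 and 68. Other early genes were not uniformly scarce: Ier2, which encodes a short-lived nuclear protein, had 121 to 219 CPM, Klf6 259 to 515 CPM and Myc 188 to 392 CPM. Within the EGR family the most abundant message was Egr3, a close relative of Egr1 and Egr2, at 5.52 to 13.7 FPKM, above both in every tumour, while Egr4 had 0 reads. Ier2 and Myc were chosen after their values were seen.

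Fosl1 and Junb made up most of their families in every tumour, while the shares of the scarce FOS genes varied more. Fosl1 gave 76.1% to 85.7% of the summed FOS family FPKM and Fosl2 12.3% to 20.9%, while Fosb gave 1.25% to 3.69% and Fos 0.447% to 0.931%. Junb gave 59.5% to 70.0% of the JUN family FPKM, Jun 19.7% to 28.5% and Jund 10.2% to 14.9%. Summed JUN messages came to 374, 318 and 339 FPKM with shVec and to 292, 302 and 212 FPKM with shNgb, with no overlap. Summed FOS messages came to 86.2, 114 and 101 FPKM and to 79.4, 87.2 and 93.6 FPKM, with overlap. JUN exceeded FOS message in every tumour, from 2.26 times in shNgb replicate 3 to 4.34 times in shVec replicate 1.

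The comparison of shNgb with shVec tumours asks whether these factors differ with the hairpin. None of the 10 passed an adjusted p under 0.05 in edgeR, as did none of all 15203 genes (0%, smallest adjusted p 0.9997, with 392 genes at an unadjusted p under 0.05). By limma-voom the count of genes called was also 0, and by DESeq2 it was 5, none of them one of the 10. A negative log2 fold change was found in 9 of the 10, against 49.1% of all tested genes, and the median was -0.26 against 0.00 over all tested genes. The groups did not overlap, with shNgb lower, in 3 of the 10 (Fosl2, Junb and Atf3), against 3.43% of all tested genes, and with shNgb higher in 0 of the 10, against 3.67%. An unadjusted edgeR p under 0.05 with a lower level was reached by Fosl2 and Atf3, 2 of the 10, against 1.22% of all tested genes, and with a higher level by 0 of the 10, against 1.35%. The list as such was not tested, since it was drawn up with results of these data known.

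**Figure D2:**
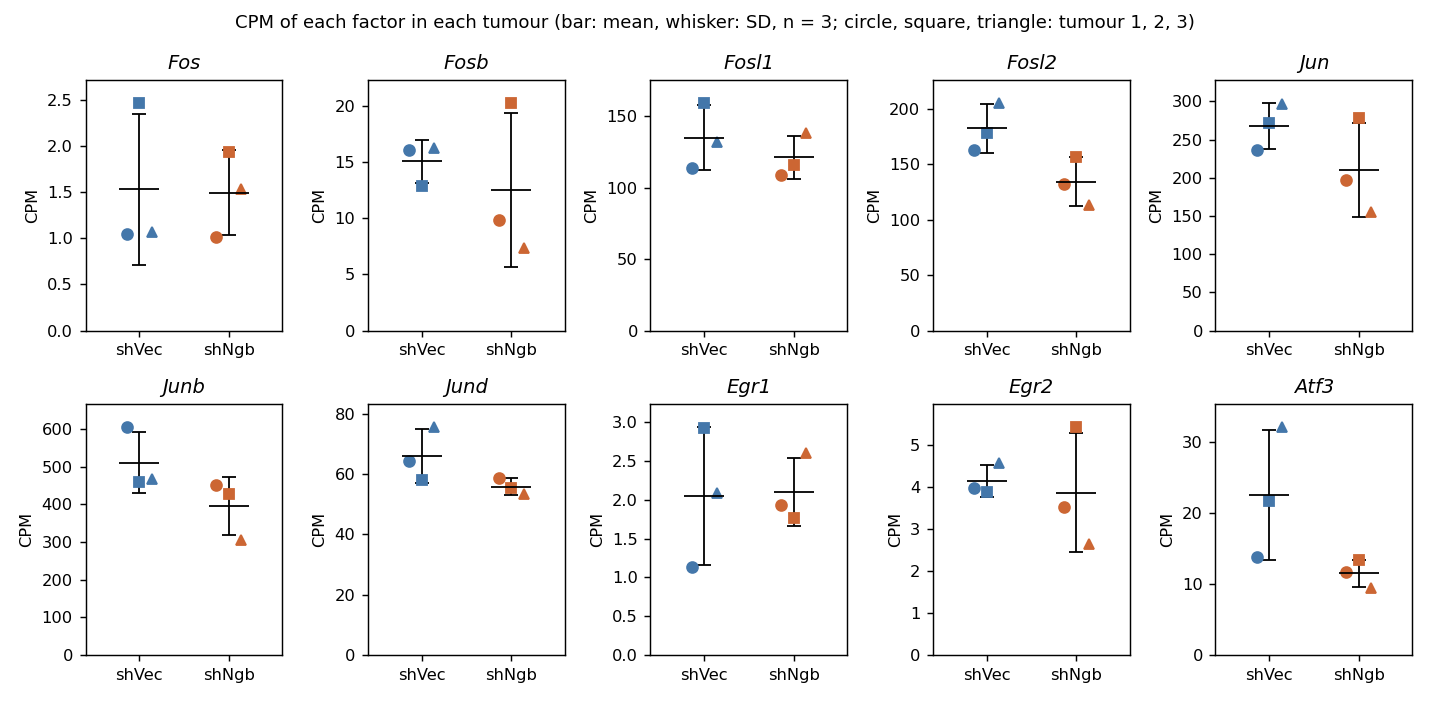
CPM of each factor in each tumour (points), with the mean (bar) and SD (whisker) of 3 tumours per group and axes starting at 0. In Fosl2, Junb and Atf3 the 3 orange shNgb points lie below the 3 blue shVec points, and in the other 7 genes the groups overlap.

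Among the FOS genes, Fosl2 stood apart most clearly. It had 162, 178 and 205 CPM in the shVec tumours and 132, 157 and 113 CPM in the shNgb tumours. Every shNgb value was below every shVec value, and shNgb replicate 3 was lowest. The log2 fold change was -0.44 (SE 0.13, 95% interval -0.74 to -0.14), a fold of 0.736, with an edgeR p of 0.00932 unadjusted and 0.9997 adjusted. Fosl2 lies on chromosome 5 at 32135801 to 32157842, plus strand (GRCm38).

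Fosl1, the most abundant FOS gene, had 114, 160 and 132 CPM in shVec and 109, 116 and 138 CPM in shNgb, and shNgb replicate 3 was above all but 1 shVec tumour. The difference was -0.16 on the log2 scale (SE 0.14, 95% interval -0.47 to 0.16), and -0.02 without shVec replicate 2. Fosl1 exons share 1163 bases with Ccdc85b on the opposite strand, which had 639 to 1136 reads against 2265 to 3610 for Fosl1, and the library kit does not mark strand, so shared reads cannot be assigned. Fosb had 16.1, 12.9 and 16.3 CPM in shVec and 9.84, 20.3 and 7.36 CPM in shNgb. Both its highest and its lowest tumour were thus shNgb tumours (log2 fold change -0.27, SE 0.35). Without shNgb replicate 2 this value was -0.81 and without shNgb replicate 3 it was -0.00, so it rests on single tumours. Fos itself had 1.05, 2.47 and 1.07 CPM in shVec and 1.01, 1.93 and 1.53 CPM in shNgb, a log2 fold change of -0.03 with a 95% interval from -0.99 to 0.94. Fos had 21 to 49 reads a library, and a difference of any size within that interval is compatible with these data.

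All JUN genes stood lower on average in shNgb tumours, and none passed an unadjusted p of 0.05 in edgeR. Each did so in some alternatives, such as DESeq2 for Jun (0.0442) and Junb (0.0174) and RLE scaling for Jund (0.0489), and none had an adjusted p under 0.05 there. Junb had 605, 460 and 467 CPM in shVec and 451, 427 and 306 CPM in shNgb. The groups did not overlap, but the lowest shVec and the highest shNgb value differed by little, and shNgb replicate 3 lay well below the rest. The difference was -0.37 on the log2 scale (SE 0.17, 95% interval -0.76 to 0.02), with an edgeR p of 0.0582 unadjusted and 0.9997 adjusted, and -0.22 without shNgb replicate 3. Junb exons share 173 bases with Prdx2, an abundant peroxiredoxin gene on the opposite strand with 10948 to 15926 reads.

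Jun had 236, 272 and 296 CPM in shVec and 197, 278 and 156 CPM in shNgb, so shNgb replicate 2 lay among the shVec tumours and the other shNgb tumours below them. The log2 fold change was -0.35 (SE 0.21, 95% interval -0.84 to 0.13), -0.18 without shNgb replicate 3 and -0.60 without shNgb replicate 2. Jun exons share 232 bases with the antisense gene Junos, which had 27 to 39 reads a library. Jund had 64.2, 58.2 and 75.7 CPM in shVec and 58.8, 55.3 and 53.3 CPM in shNgb, with the lowest shVec tumour just under the highest shNgb tumour. The difference was -0.24 on the log2 scale (SE 0.11, 95% interval -0.49 to 0.00), with an edgeR p of 0.0515 unadjusted and 0.9997 adjusted, and -0.13 without shVec replicate 3. The shNgb tumours lay close together in Jund, at 55.8 ± 2.79 CPM against 66.0 ± 8.89 CPM with shVec (SD, n = 3).

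Neither EGR gene showed a difference that these data could resolve. Egr1 had 1.14, 2.92 and 2.09 CPM in shVec and 1.93, 1.77 and 2.61 CPM in shNgb, and all 3 shNgb values lay within the shVec range. The difference was 0.04 on the log2 scale (SE 0.37, 95% interval -0.80 to 0.88), and it turned negative without shVec replicate 1 (-0.25) or shNgb replicate 3 (-0.15). Egr2, known from Schwann cell myelination, had 3.96, 3.88 and 4.58 CPM in shVec and 3.52, 5.43 and 2.64 CPM in shNgb, with shNgb tumours at both ends. The difference was -0.10 on the log2 scale (SE 0.29, 95% interval -0.75 to 0.55), and it turned positive without shNgb replicate 3 (0.11).

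Atf3 showed the largest difference among the 10. It had 13.8, 21.7 and 32.1 CPM in shVec and 11.6, 13.3 and 9.47 CPM in shNgb. The groups did not overlap, though shVec replicate 1 lay next to the shNgb tumours and the shVec tumours spread far more widely. The log2 fold change was -0.97 (SE 0.30, 95% interval -1.66 to -0.28), a fold of 0.510, with an edgeR p of 0.0121 unadjusted and 0.9997 adjusted. Without shVec replicate 3 it was -0.63. Atf3 lies on chromosome 1 at 191170296 to 191218039, minus strand (GRCm38), and its count covers all its start sites together.

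**Figure D3:**
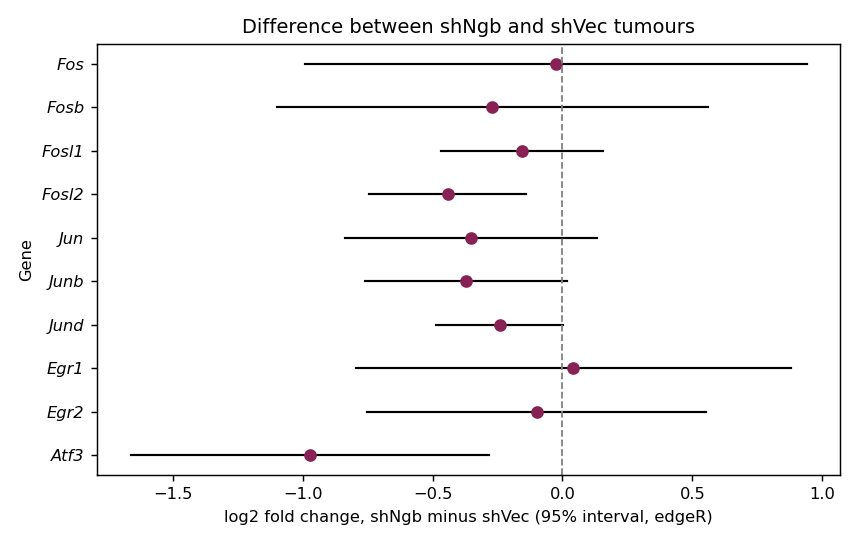
Log2 fold change of each factor, shNgb minus shVec (point), with its 95% interval from edgeR (line) and a dashed line at 0. The intervals of Fosl2 (-0.74 to -0.14) and Atf3 (-1.66 to -0.28) lie below 0, and those of the other 8 genes reach or cross it.

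Tumour by tumour, 1 library was often the lowest. The shNgb tumour of replicate 3 was the lowest of all 6 in 7 of the 10 factors (Fosb, Fosl2, Jun, Junb, Jund, Egr2 and Atf3), while Egr1 and Fosl1 were higher there than in the other shNgb tumours. The highest tumour was shVec replicate 3 in 4 factors, shVec replicate 2 in 3, shNgb replicate 2 in 2 and shVec replicate 1 in 1. On the log2 scale relative to the mean of 6 tumours, shNgb replicate 3 stood at -0.82 for Fosb, -0.71 for Atf3, -0.58 for Jun and -0.54 for Junb, against 0.37 for Egr1. Fos and Egr1 were both highest in shVec replicate 2, at 0.75 and 0.53. Without shNgb replicate 3, 9 of the 10 log2 fold changes were still negative, with Egr1 negative and Egr2 positive.

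**Figure D4:**
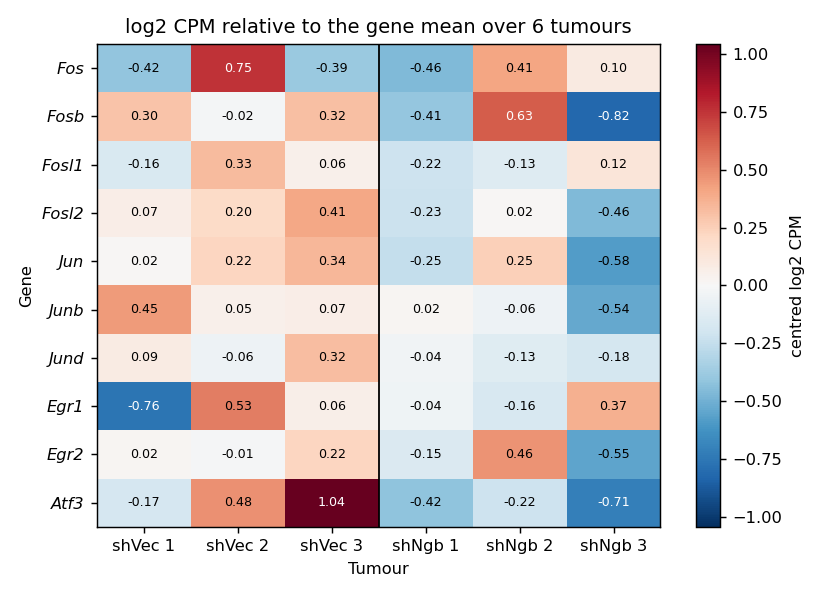
Log2 CPM of each factor relative to its mean over the 6 tumours (colour and number), with shVec tumours left and shNgb tumours right of the line. The column of shNgb replicate 3 holds the lowest value of 7 rows, down to -0.82 in Fosb, while Atf3 in shVec replicate 3 is highest at 1.04.

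Several of the factors varied more between tumours of a group than genes of like abundance. The biological coefficient of variation, edgeR's estimate of the spread beyond counting error, was 17.9% for Jun against 9.78% for the trend at its abundance, and 14.8% against 9.66% for Junb. It was 30.9% against 19.4% for Fosb and 26.0% against 17.8% for Atf3. The ratio to the trend was higher in these 4 than in 96.9% (Jun), 94.7% (Junb), 95.3% (Fosb) and 93.7% (Atf3) of all tested genes. Fosl1 (12.6% against 10.2%) and Fosl2 (12.2%, 1.22 times its trend) lay above the trend, with ratios higher than in 88.9% and 88.3% of all tested genes. Jund (10.6% against 11.3%) and Egr2 (26.5% against 28.2%) lay slightly below it. Their ratios were still higher than in 64.2% and 64.8% of all tested genes, since most genes lie below the trend. Counting error came to 18.5% for Fos, 15.5% for Egr1 and 10.9% for Egr2 against 1.02% for Junb, below the biological coefficient of variation in each.

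**Figure D5:**
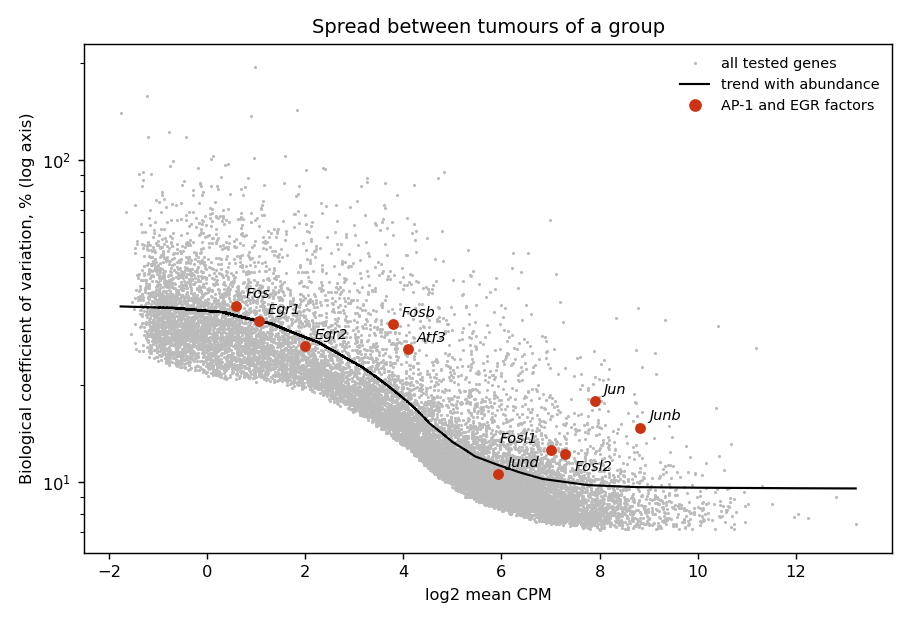
Biological coefficient of variation (percent, log axis) against log2 mean CPM for all 15203 tested genes (grey), the trend (line) and the 10 factors (red). Jun, Junb, Fosb and Atf3 lie above the trend, and Fos, Egr1, Egr2 and Jund lie close to it. Most tested genes lie below the trend.

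The partners and regulators of these factors were described from lists of genes outside the 10. Of 14 further leucine zipper partners, 13 were tested, with 7 higher and 6 lower and a median log2 fold change of 0.01. Batf3, a dimer partner known from dendritic cells, had 0.638, 0.504 and 0.153 CPM in shVec and 0.868, 1.65 and 1.49 in shNgb (log2 fold change 1.61, SE 0.50). Batf3 had only 124 reads over all 6 tumours, so its values rest on few reads. Maf, known from macrophages and T cells, had 6.20 ± 0.408 CPM in shVec against 9.60, 17.4 and 7.36 CPM in shNgb (SD, n = 3; log2 fold change 0.89, SE 0.30). In both of these genes the shNgb tumours were all above the shVec tumours, opposite to Fosl2, Junb and Atf3, and their edgeR p were 0.0110 and 0.0176 unadjusted and 0.9997 adjusted. Maff, a small MAF protein without an activation domain, averaged 52.4 ± 9.13 CPM with shVec and 42.5 ± 4.07 CPM with shNgb (SD, n = 3), and Batf2 at 0.833 ± 0.667 and 1.86 ± 1.22 CPM. The EGR list held Egr3 (53.0 ± 6.65 CPM in shVec, 40.1 ± 13.4 in shNgb), and the corepressors Nab1 (log2 fold change -0.05, SE 0.14) and Nab2 (0.13, SE 0.22), all with overlapping groups.

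Upstream factors and kinases differed little. Of 21 tested, 8 were higher and 13 lower, with a median log2 fold change of -0.02 and values from -0.26 to 0.12. Mrtfa, the actin-regulated coactivator of SRF, had 125, 120 and 137 CPM in shVec and 101, 103 and 116 CPM in shNgb (log2 fold change -0.26, SE 0.09), with an edgeR p of 0.0145 unadjusted and 0.9997 adjusted. Srf had 135, 149 and 142 CPM in shVec and 127, 124 and 130 CPM in shNgb (-0.16, SE 0.07). The groups did not overlap in either gene, with shNgb lower. The JNK2 gene Mapk9 and the ERK5 gene Mapk7 had log2 fold changes of -0.12 (SE 0.08) and 0.12 (SE 0.09).

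Other immediate early genes leaned the same way as the 10 factors. Of 26 tested, 24 had a log2 fold change below 0, against 49.1% of all tested genes. The median was -0.23, and 0 passed the adjusted threshold in edgeR. An unadjusted edgeR p under 0.05 was reached by 6, all lower, against 1.22% of all tested genes. In 5 of the 26 the groups did not overlap, with shNgb lower, against 3.43%. The 4 of smallest p were Ppp1r15a, a phosphatase subunit of the stress response (-0.81, SE 0.15), the zinc finger factors Klf4 (-0.72, SE 0.14) and Klf6 (-0.52, SE 0.15), and Zfp36, which speeds the decay of AU-rich messages (-0.56, SE 0.16). All 4 had no overlap between the groups. Ppp1r15a and Klf4 were called in 2 alternatives, with adjusted p of 0.00805 and 0.0160 in edgeR without the expression filter and of 0.00169 and 0.0137 in DESeq2.

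Genes known as AP-1 targets were mixed. Of 17 tested, 5 were higher and 12 lower, with a median log2 fold change of -0.05. Hbegf, an EGF receptor ligand, had 142, 141 and 121 CPM in shVec and 98.1, 111 and 92.6 CPM in shNgb, with no overlap (log2 fold change -0.42, SE 0.10), with an edgeR p of 0.00184 unadjusted and 0.9997 adjusted. The macrophage elastase gene Mmp12 (-0.66, SE 0.33) and the ligand gene Areg (-0.45, SE 0.32) had overlapping groups. Known EGR targets were split evenly, with 6 higher and 6 lower of 12 and a median of -0.02. Those of smallest p were Gdf15, a stress-induced cytokine (-1.16, SE 0.54), Pdgfa (-0.26, SE 0.18), Fn1 (-0.42, SE 0.31) and Tgfb1 (0.15, SE 0.13), all overlapping.

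Atf3 is a target of the integrated stress response, and the genes of that response stood lower as well. All 18 tested had a log2 fold change below 0, against 49.1% of all tested genes, and the median was -0.29. Of the 18, 6 reached an unadjusted edgeR p under 0.05 with a lower level, against 1.22% of all tested genes. In 6 of the 18 the groups did not overlap, with shNgb lower, against 3.43%, and 0 passed the adjusted threshold in edgeR. Besides Ppp1r15a, which is in both lists and was called in those 2 alternatives, those of smallest p were Chac1, which breaks down glutathione (65.2 ± 7.05 CPM in shVec, 42.5 ± 8.34 in shNgb), Atf4 (567 ± 62.2 and 450 ± 29.8) and Slc3a2, an amino acid transporter subunit (log2 fold change -0.32, SE 0.10), each with no overlap (SD, n = 3). Heat shock genes leaned the other way, with 9 of 10 positive and a median of 0.10. In that list the cochaperone gene Bag3 averaged 68.6 ± 3.15 CPM with shVec and 76.7 ± 1.91 CPM with shNgb, and the constitutive chaperone gene Hspa8 1449 ± 117 and 1626 ± 174 CPM (SD, n = 3).

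Other gene lists were described in the same tumours, and some leaned lower or higher with shNgb while others did not. Hypoxia genes were lower in 15 of 15, with a median of -0.49 and a summed level of 5301 to 5449 CPM in shVec and 3507 to 4979 CPM in shNgb, lowest in shNgb replicate 3. Of these 15, 7 reached an unadjusted edgeR p under 0.05 with a lower level, against 1.22% of all tested genes. The groups did not overlap in 9 of the 15, with shNgb lower, against 3.43%, and 0 passed the adjusted threshold in edgeR. Glial and neural stem markers were lower in 4 of 5 tested and summed to 855 to 896 CPM in shVec and 743 to 811 CPM in shNgb, with no overlap and the lowest sum in shNgb replicate 3. Among them Nes alone reached an unadjusted edgeR p under 0.05 (log2 fold change -0.29, SE 0.08), with no overlap. Macrophage markers were higher in 12 of 12, with a summed level of 136 to 286 CPM in shVec and 182 to 394 CPM in shNgb, highest in shNgb replicate 3. T and NK cell markers were higher in 11 of 11 tested, from sums of 4.53 to 24.1 CPM to sums of 4.82 to 50.6 CPM, also highest there. Fibroblast markers were higher in 7 of 8 tested, yet their sum, 1756 to 2031 CPM in shVec and 1191 to 2461 CPM in shNgb, was lowest in shNgb replicate 3. B and plasma cell markers (3 of 3 tested higher, 2.24 to 4.33 and 3.09 to 13.5 CPM) and dendritic cell markers (4 of 5, 7.61 to 11.6 and 8.25 to 24.0 CPM) leaned alike. Neutrophil markers were scarce, with Ly6g and Elane at 0 reads, and summed to 2.14 to 3.68 CPM in shVec and 2.72 to 11.7 CPM in shNgb. Endothelial markers summed to 142 to 152 and 137 to 153 CPM, and pericyte and smooth muscle markers to 399 to 464 and 341 to 473 CPM. Cspg4 gave most of the pericyte and smooth muscle sum and is also in the glial and neural stem list, so those sums are not separate readings. Skeletal muscle (8.11 to 27.6 and 7.57 to 8.76 CPM), adipocyte (2.29 to 2.92 and 2.18 to 3.13 CPM) and keratinocyte markers (5.24 to 6.75 and 5.25 to 6.94 CPM) were scarce. The part of these in the values of the 10 factors was not tested, and in whole tumours fewer cells of a type and less RNA per cell cannot be told apart.

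The genes whose pattern over the 6 tumours lay nearest to 4 of the factors were found among 9053 genes of at least 10 CPM. Nearness was the root mean square difference of log2 CPM, each gene centred on its mean. For Jun these were Spry2 (0.08), Fgf2 (0.10) and Spry4 (0.10), against a median of 0.34 over all candidates. Spry2, for example, had 23.2, 25.2 and 28.4 CPM in shVec and 17.1, 25.9 and 16.0 CPM in shNgb, which follows Jun down to the high value in shNgb replicate 2. For Atf3 they were Plk2 (0.12), Dusp8 (0.17) and Dusp1 (0.19), against a median of 0.60. Plk2 had 31.3, 52.6 and 63.4 CPM in shVec and 27.4, 29.5 and 24.3 CPM in shNgb, the same order of tumours as Atf3 in both groups. For Egr1 they were Rcan1 (0.12), Kitl (0.13) and Zmynd15 (0.17), and for Fos they were Hmox1 (0.19), Ifi27 (0.21) and Gatm (0.22), against medians of 0.44 and 0.48. These are descriptions over 6 tumours with no test, and those of Fos and Egr1 rest on few reads.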

How the data were processed

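RNA was sequenced from 6 subcutaneous G422 tumours, 3 labelled shNgb and 3 labelled shVec, with groups and replicate numbers from the sample titles. Illumina TruSeq RNA libraries were made from Trizol-extracted total RNA, per the labels' protocols, a kit type that does not mark strand. The submitters' processing notes name Bowtie 0.12.2 and builds mm8 and mm10 without a role. Which program counted reads, and over which annotation, is not given in the sources used here. Raw read counts per Ensembl gene and, per the file headers, FPKM for each library were deposited by the authors. In the 11113 genes with over 50 reads in every library, FPKM equalled counts divided by a gene and a library factor (largest relative deviation 5.3e-09). The implied length was close to that of the merged exons of the annotation used here for 9 of the 10 factors and was shorter for Fosl1 (1716 against 2033 bases).

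Symbols and coordinates came from GENCODE M21 (GRCm38), which named 54409 of 54532 IDs. Counts were tested with edgeR 4.0.16 (R 4.3.3), with its default expression filter, TMM scaling, the robust quasi-likelihood F-test and Benjamini-Hochberg adjustment over 15203 genes. SEs were derived from the F statistic. CPM uses TMM-scaled library sizes, and centred log2 CPM a prior count of 2. DESeq2 1.42.0 and limma 3.58.1 (voom) were alternatives. The script was tested on simulated data. No libraries were identical. With blastn 2.17.0 (95% identity over 250 bases) no copy of a factor was found beyond overlapping genes of the opposite strand (Ccdc85b for Fosl1, and Gm11175, with 0 reads, for Jund).

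Named genes were the 10 factors, Ngb, up to 4 genes of smallest p per pathway list and the 3 nearest patterns of 4 factors, plus a few singled out in the text. One gene that this rule names is not reported here. The factors, lists and tests were chosen with earlier results of these data known.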

Additional observations from a re-analysis of the deposited data

How the results depend on the processing

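None of the 10 factors was called under any of the 14 alternatives: scaling by RLE or by upper quartile, all genes with at least 1 read, only genes with 10 reads and 1 CPM in 3 libraries, DESeq2, limma-voom, the replicate block, an adjusted p under 0.1, and leaving out each library in turn. Over all genes, 0 were called by edgeR, 3 without the filter and 5 by DESeq2 (Klf4 and Ppp1r15a in both) and 1 with the replicate number as a block (Rpl17-ps10), and 0 in each fit without one library (lowest 0, highest 0). Fosl2 kept a log2 fold change between -0.57 and -0.33 and an unadjusted p between 0.00083 and 0.0408 over its 13 alternatives, and Atf3 between -1.23 and -0.63 and between 0.000191 and 0.0403; their smallest adjusted p were 0.571 and 0.187. Fos, at -0.03, turned to 0.0626 by limma-voom and 0.0248 with the replicate block, which moved no call among the factors, and ranged from -0.25 to 0.50 when one library was left out. In such fits Egr1 ranged from -0.25 to 0.39 and Egr2 from -0.43 to 0.11. Tumours sharing a number did not all deviate together (r = 0.257, -0.145 and -0.0987 across genes for numbers 1, 2 and 3), so the numbers were not taken as pairs. The other 7 factors stayed negative in every alternative. Factors at an unadjusted p under 0.05 numbered 2 in edgeR, 4 by DESeq2 and 4 without shNgb replicate 2. Fos, Egr1 and Egr2 had 21 to 132 reads a library, and their counting error was below their spread between tumours.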
